A study of Mus musculus with 12 samples.

Results

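The genes of antigen presentation and of the interferon response were examined in the nucleus accumbens (NAC) of postpartum and virgin mice. They were taken by symbol, without use of any measured value, and comprise the MHC (H2) genes, B2m, the peptide transporters Tap1 and Tap2, tapasin (Tapbp) and its relative Tapbpl, the interferon receptors, the interferon regulatory factors (Irf1 to Irf9) with their Irf2-binding relatives, and the Ifi, Ifit, Ifitm, Oas, Gbp, Isg, Mx, Usp18 and Bst2 genes. The rule gave 107 genes of the 22180 genes with a probeset that the platform annotation assigns to a single symbol. RNA came from 6 lactating postpartum mice on day 7 after birth, with litters standardized to 11 pups, and from 6 age-matched adult virgin mice in diestrus. All mice were outbred hsd:ICR females without any transgene or drug treatment. For a mating period the later postpartum mice were housed with a breeder male and the virgin mice with other females. After it all females were housed singly until the births. Postpartum and virgin brains were taken on matched days. Tissue was micropunched from NAC, each mouse had its own GeneChip Mouse Gene 2.0 ST array, and so 12 arrays were compared, 6 per group. The mice are named here by group and replicate number.

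MHC class I molecules present peptides made in the cell, which the TAP transporter carries into the endoplasmic reticulum and tapasin loads onto a heavy chain paired with beta-2-microglobulin (B2m). MHC class II molecules present peptides from lysosomes and are made in brain mainly by microglia and by macrophages at its borders. Type I interferons bind Ifnar1 and Ifnar2, and the signal reaches genes that carry the interferon-stimulated response element through factors that include Irf9. Interferon gamma binds Ifngr1 and Ifngr2, and its signal reaches genes that carry the gamma-activated site. In brain, class I genes are also made by neurons, where they are known for roles at synapses.

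The promoters shown here are of 1 gene that rose in postpartum NAC with neither element in its window and of 3 genes that hold the element letters. RefSeq promoter windows of build GRCm38.p6, from 250 bases before to 50 bases after a transcription start, were found for 79 of the 107 genes. Capitals mark matches to the response element core (GAAA, any 2 bases, GAAA) or the gamma-activated site (TTCNNNGAA) on either strand. The first is Irf9, at chr14:55603735-55604034 on the plus strand.
Irf9: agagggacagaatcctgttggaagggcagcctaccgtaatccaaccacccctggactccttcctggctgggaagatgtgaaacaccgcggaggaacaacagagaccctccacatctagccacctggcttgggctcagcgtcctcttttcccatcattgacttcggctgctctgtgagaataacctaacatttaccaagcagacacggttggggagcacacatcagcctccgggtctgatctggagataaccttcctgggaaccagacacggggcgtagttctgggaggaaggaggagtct
Irf2 lies at chr8:46739495-46739794 on the plus strand and holds 1 match to each element.
Irf2: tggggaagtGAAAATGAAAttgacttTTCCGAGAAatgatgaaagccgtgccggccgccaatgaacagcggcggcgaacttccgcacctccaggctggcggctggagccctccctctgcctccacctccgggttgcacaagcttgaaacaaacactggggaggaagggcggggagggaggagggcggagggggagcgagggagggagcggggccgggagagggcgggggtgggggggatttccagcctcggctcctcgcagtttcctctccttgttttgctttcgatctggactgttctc
Isg15 lies at chr4:156200769-156201068 on the minus strand and holds 3 overlapping matches to the response element core.
Isg15: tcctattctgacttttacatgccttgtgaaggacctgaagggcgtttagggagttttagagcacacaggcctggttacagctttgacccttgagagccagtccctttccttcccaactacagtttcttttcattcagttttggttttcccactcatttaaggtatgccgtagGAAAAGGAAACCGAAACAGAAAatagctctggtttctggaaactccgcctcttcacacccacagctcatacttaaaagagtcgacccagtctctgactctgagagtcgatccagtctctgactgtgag
Ifit1 lies at chr19:34640639-34640938 on the plus strand and holds 2 matches to the response element core.
Ifit1: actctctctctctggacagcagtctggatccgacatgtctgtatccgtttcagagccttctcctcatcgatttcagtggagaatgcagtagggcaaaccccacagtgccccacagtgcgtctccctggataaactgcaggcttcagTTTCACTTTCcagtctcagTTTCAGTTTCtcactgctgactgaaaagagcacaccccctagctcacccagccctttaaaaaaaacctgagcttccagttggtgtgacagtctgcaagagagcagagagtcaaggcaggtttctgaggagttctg
The second Irf9 window of the table, at chr14:55604329-55604628, held no match either. A match to the response element core stood in 24 of the 79 genes (30.4%), against 3.99% of all 27025 genes in the table, and a match to the gamma-activated site stood in 18 of 79 (22.8%), against 9.55%. A match is a description of letters in a window and no evidence of binding. None of the 24 genes with the response element core passed limma p under 0.01 between groups, and 6 of the 55 genes without it did. Over all 22180 genes the share was 2.8%, so a count of 0 among 24 genes carries little information. Oas1b, which passed, had no window and is in neither count. Of the 18 genes with the gamma-activated site, Ifitm6 passed.

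The comparison of groups asked which of these genes had altered expression in postpartum NAC. The words rose and fell are used for a limma p under 0.01 on log2 intensities (postpartum minus virgin), the threshold of the study, and a second threshold of 0.03 is given beside it. Exact p stands for a two-sided permutation test over all splits of the 12 mice into 6 and 6. Irf9, Irf3, Oas1b, Ifitm6 and H2-Q10 rose and Ifitm1 and H2-Q4 fell, which is 7 of 107 genes (6.54%), against 2.8% of all 22180 genes. Rises were 5 of 107, against 1.72% of all genes, and falls were 2 of 107, against 1.08%. At the second threshold 13 of 107 genes passed, against 6.56% of all genes. Of these 7 were higher, against 3.68% of all genes, and 6 were lower, against 2.88%. None of the 107 genes, and none of all 22180, passed an adjusted p of 0.05 in limma, while at an unadjusted p under 0.05 16 of the 107 passed, against 9.91% of all genes. The lowest adjusted p was 0.351 among the 107 genes, for Irf9, and 0.106 among all genes. On linear intensities, the deposited scale, 6 of 107 genes passed 0.01 (5.61%), against 4.2% of all genes, and 11 of 107 passed 0.03 (10.3%), against 8.62%. Among the genes over 0.03, leaving out 1 mouse gave 6 further calls in limma, all lower in postpartum mice. How many of all genes gain a call in this way was not counted, so these 6 have no share beside them. Leaving out the mouse that goes most against a difference tends to lower its p. Without virgin mouse 6, H2-Ab1, H2-Q1 and Ifi207 passed 0.01 (p of 0.000442 to 0.00656), and so did Ifitm2 without postpartum mouse 2, Oasl1 without virgin mouse 1 and Gbp11 without virgin mouse 4 (p of 0.00641 to 0.00800).
The mean log2 intensity was higher in postpartum mice for 50 genes and lower for 57, and the median log2 difference over the 107 genes was -0.0055, against -0.0052 over all genes. The largest differences were 0.50 for H2-Q10 and -0.48 for Gbp11. Only 36 of the 107 genes had a mean intensity above that of the median probeset (158), and of the 7 genes that passed, only Irf9 and Irf3 were among them. The other 5 come from dim probesets. Among the 36, 2 passed (5.56%), against 3.6% of all genes above the median. Since the tissue was not sorted, fewer cells of a type and less RNA per cell cannot be told apart.

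**Figure D1:**
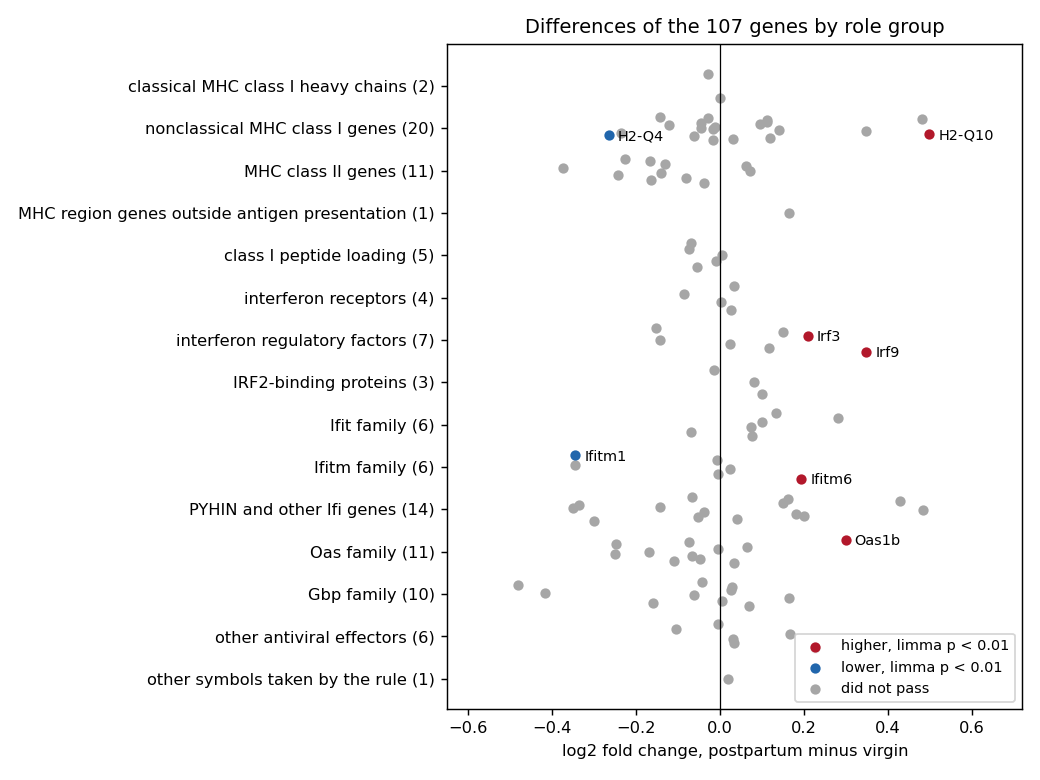
Log2 fold change of each of the 107 genes (postpartum minus virgin, x axis) by role group (y axis, number of genes in brackets), 1 point per gene. Red points are the 5 genes that rose and blue points the 2 that fell at limma p under 0.01; most of the other points lie close to 0 on both sides.

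Interferon regulatory factors, the transcription factors that act downstream of interferon receptors and of nucleic acid sensors, included the only genes of the 107 whose groups did not overlap. Of 7 measured members, Irf9 and Irf3 rose, Irf2 was higher and Irf1 lower at the second threshold, and Irf4, Irf7 and Irf8 did not pass.
Irf9, the DNA-binding subunit of the complex that type I interferon activates, read 405.3, 319.1, 284.0, 284.5, 305.6 and 295.9 in postpartum mice 1 to 6, and 276.9, 228.2, 224.9, 245.5, 232.3 and 274.3 in virgin mice 1 to 6. The groups did not overlap, and postpartum mouse 1 stood above all others. The log2 difference was 0.35 (standard error 0.093), with a limma p of 0.00291 and an exact p = 0.00216, the smallest that 6 against 6 mice can give. Without postpartum mouse 1 the difference was 0.27 (limma p of 0.00242), and leaving out any single mouse left the p under 0.01.
Irf3, which is activated after nucleic acid sensing and induces the interferon beta gene, read 342.7, 333.7, 358.7, 350.6, 370.0 and 333.5 in postpartum mice, and 314.3, 258.3, 311.3, 327.7, 321.7 and 280.2 in virgin mice. Again the groups did not overlap, although the gap between them was narrow. The log2 difference was 0.21 (standard error 0.063), with a limma p of 0.00648 and an exact p = 0.00216. Leaving out postpartum mouse 1, 3, 4 or 5 or virgin mouse 2 or 6 gave a limma p of 0.0101 to 0.0162. Groups without overlap were found for 1.06% of all genes and for 2 of the 107, these 2 factors.
Irf2, known as a repressor that competes with Irf1 for shared elements, read 678.6 to 829.3 (median 768.7) in postpartum mice and 637.6 to 716.9 (median 685.8) in virgin mice. Postpartum mouse 4 was low and overlapped the virgin mice, and the other 5 postpartum mice lay above all virgin mice. The log2 difference was 0.15 (standard error 0.053, limma p of 0.0146, exact p = 0.0152). Without postpartum mouse 4 the limma p was 0.00298, without virgin mouse 4 it was 0.0348, and on linear intensities with all mice it was 0.00588. The paper names Irf2 among the regulators in its co-expression analysis, which used an array p cutoff of 0.01.
Irf1, an activator that interferon gamma induces, read 178.9, 184.1, 186.4, 156.6, 160.8 and 184.0 in postpartum mice, and 190.6, 193.3, 194.4, 205.1, 205.7 and 177.6 in virgin mice. Only virgin mouse 6 fell within the postpartum range. The log2 difference was -0.15 (standard error 0.059, limma p of 0.0247, exact p = 0.0173), and with each array centred on its median the p was 0.0809.
Irf7, the factor that amplifies type I interferon production, averaged 107 ± 12.7 in postpartum mice and 105 ± 11.7 in virgin mice (SD, n = 6 each, exact p = 0.790). Irf8, a factor of microglia and other myeloid cells, differed by 0.12 (exact p = 0.162), and Irf4 by -0.14 (exact p = 0.264). Irf2bp1 and Irf2bp2, corepressors that bind Irf2, and their relative Irf2bpl differed by -0.015 to 0.098 and none passed (lowest exact p = 0.169).

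**Figure D2:**
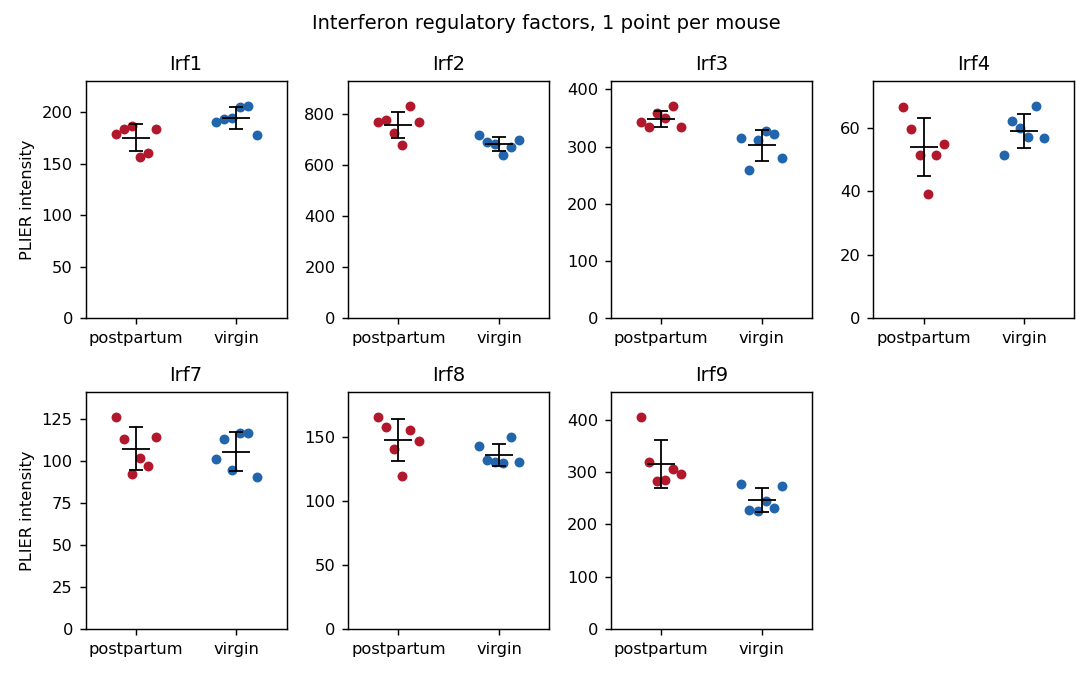
PLIER intensity (y axis, linear, from 0) of the 7 interferon regulatory factors, 1 point per mouse, for 6 postpartum (left, red) and 6 virgin mice (right, blue) in each panel; bars are the mean with 1 SD. Irf3 and Irf9 show no overlap between the groups, and 1 postpartum mouse lies far above the rest for Irf9.

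Upstream of these factors, the interferon receptors showed no change that passed. Ifnar1 averaged 828 ± 26.1 in postpartum mice and 810 ± 22.1 in virgin mice (SD, n = 6 each). Over Ifnar1, Ifnar2, Ifngr1 and Ifngr2 the log2 differences were -0.087 to 0.032, with a lowest exact p = 0.175. Of 9 measured interferon genes themselves, including Ifnb1 and Ifng, none passed a limma p under 0.05, against 9.91% of all genes. A set of 9 genes would hold few calls in any case. Of the 9, 6 had a negative difference and 3 a positive one, with a median of -0.071.
Of 9 measured genes of interferon signal transduction outside the symbol rule, none passed 0.01 (2.8% of all genes did) and 3 passed 0.05 (9.91% did), all higher. These were Jak2, a kinase of the interferon gamma receptor (0.16, exact p = 0.0238), Ptpn2, a phosphatase that acts on Jak and Stat proteins (0.17, exact p = 0.0238), and Stat2, the partner of Irf9 (0.16, exact p = 0.0519). Of the 9 genes, 8 had a positive difference, against 47.9% of all genes, with a median of 0.092. Among 13 nucleic acid sensors and adaptors, Tlr7, a receptor for single-stranded RNA, was higher at the second threshold (0.26, limma p of 0.0259, exact p = 0.0346). Its limma p was 0.00646 without postpartum mouse 4 and 0.0569 without virgin mouse 4. With all mice Tlr7 was the only gene of the 13 under 0.05.

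Downstream of these factors are the interferon-induced genes. Of the 6 Ifit, 11 Oas, 10 Gbp and 6 other antiviral genes (Bst2, Isg15, Isg20, Mx1, Mx2 and Usp18), Oas1b was the only gene that passed 0.01. The share over all genes was 2.8%, so sets of this size would hold few calls in any case. Of 27 further genes that interferon induces, such as Rsad2, Cmpk2, Eif2ak2 and Cxcl10, none passed 0.01 or 0.05 in limma, against 2.8% and 9.91% of all genes. Their median log2 difference was -0.0034.
Isg15, a ubiquitin-like protein that is among the genes most readily induced by type I interferon, read 183.0, 139.9, 138.3, 145.1, 139.0 and 153.8 in postpartum mice, and 170.4, 195.4, 152.1, 161.4, 156.9 and 133.2 in virgin mice. The groups overlapped widely, and the log2 difference was -0.11 (standard error 0.095, exact p = 0.303). Ifit1 and Ifit3, which bind viral RNA, differed by 0.13 (exact p = 0.459) and -0.07 (exact p = 0.400).
Oas1b, a member of the oligoadenylate synthetase family that is inactive in many laboratory strains and is annotated as a pseudogene in GRCm38.p6, rose. It read 71.8, 71.2, 61.4, 79.5, 67.3 and 72.2 in postpartum mice, and 60.02, 48.6, 56.5, 50.3, 68.5 and 61.5 in virgin mice. Postpartum mice 3 and 5 lay within the virgin range and the other 4 above it. The log2 difference was 0.30 (standard error 0.089), the limma p was 0.00588 and the exact p = 0.0108. Leaving out postpartum mouse 1, 2, 4 or 6 or virgin mouse 2, 3 or 4 gave a limma p of 0.0117 to 0.0148, and on linear intensities 0.0126. The other 10 Oas genes differed by -0.25 to 0.063.
Isg20, an RNA exonuclease, read 195.2, 159.2, 184.1, 181.5, 177.3 and 168.3 in postpartum mice, and 172.2, 161.8, 160.1, 160.1, 151.3 and 143.1 in virgin mice. It was higher at the second threshold (0.17, standard error 0.060, limma p of 0.0169, exact p = 0.0195). Without postpartum mouse 2 or virgin mouse 1 its limma p was 0.00622 to 0.00938, and without postpartum mouse 1 it was 0.0400.
Guanylate-binding proteins are GTPases that interferon gamma induces and that attack the vacuoles of intracellular pathogens. Of 10 measured, Gbp4 was lower at the second threshold. It read 80.9, 110.6, 89.1, 88.8, 98.1 and 81.5 in postpartum mice, and 133.4, 157.2, 134.9, 80.8, 111.3 and 125.8 in virgin mice. Virgin mouse 4, at the level of the lowest postpartum mouse, kept the groups from separating, and without it the limma p was 0.000305, against 0.0130 with all mice (log2 difference -0.42, standard error 0.14, exact p = 0.0281). Without postpartum mouse 2 the p was 0.00791. Gbp11, annotated as a pseudogene, differed by -0.48 (exact p = 0.0563), and the other 8 by -0.16 to 0.16.
Among the PYHIN genes and other Ifi genes, Ifi44l was lower at the second threshold with intensities of only 17.3 to 23.9 in postpartum mice and 18.8 to 28.04 in virgin mice (-0.30, limma p of 0.0129, exact p = 0.0281), and Ifi27 differed by 0.18 (exact p = 0.154). At such intensities a fold change on the log2 scale rests on few units of brightness, and on linear values the p of Ifi44l was 0.126. Without postpartum mouse 5 or virgin mouse 5 its limma p was 0.00119 to 0.00385, and without virgin mouse 4 it was 0.0313.

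The interferon-induced transmembrane (Ifitm) proteins restrict the entry of viruses into cells, and 2 of the 6 measured genes passed, in opposite directions. Ifitm1 read 70.9, 105.9, 81.7, 81.9, 86.0 and 74.5 in postpartum mice, and 95.2, 108.2, 110.2, 91.9, 117.7 and 110.0 in virgin mice. Postpartum mouse 2 lay among the virgin mice and the other 5 below all of them. Its log2 intensity fell by 0.35 (standard error 0.097), with a limma p of 0.00391 and an exact p = 0.00866. Without postpartum mouse 6 or virgin mouse 5 the limma p was 0.0101 to 0.0103.
Ifitm6 read 60.3, 63.1, 58.5, 69.4, 69.3 and 67.2 in postpartum mice, and 54.1, 56.3, 58.2, 56.3, 52.9 and 61.1 in virgin mice. Postpartum mice 2, 4, 5 and 6 were above all virgin mice. This gave a log2 difference of 0.19 (standard error 0.057; limma p of 0.00577, exact p = 0.00866), and its residual SD was at the 0.541 percentile of genes of like intensity. On linear intensities p was 0.0259, and leaving out postpartum mouse 4, 5 or 6 or virgin mouse 1, 2, 4 or 5 gave 0.0109 to 0.0148. Ifitm3, the broadly acting member of the family, averaged 645 ± 111 in postpartum mice and 633 ± 91.3 in virgin mice (SD, n = 6 each, exact p = 0.885).

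One postpartum mouse stood apart for the interferon-induced genes. Oasl2, an interferon-induced member of the oligoadenylate synthetase family, read 364.8 in postpartum mouse 1, and 110.5 to 147.8 in the other 5 postpartum mice and 119.3 to 189.9 in the virgin mice. This was 2.55 times the median of the other 11 arrays, and by this ratio Oasl2 ranked 18 of 22180 genes.
Usp18, the protease that removes Isg15 from proteins and damps type I interferon signalling, read 272.4 in that mouse and 119.0 to 203.2 in the other 11. Ifit1 read 221.5 against 102.4 to 153.6, Mx2 138.4 against 79.75 to 119.4, and Gbp7 239.9 against 148.5 to 214.7. Of the genes outside the symbol rule, Rtp4 read 212.1 against 120.6 to 151.1 and Trim21 206.9 against 116.9 to 175.3. Postpartum mouse 1 had the highest of the 12 values for 10 of the 27 further interferon-induced genes (37.0%), against 8.31% of all genes. Over the 107 genes this mouse was not alone, since it had the highest value for 13 (12.1%), virgin mouse 3 for 16, and postpartum mouse 4, virgin mouse 2 and virgin mouse 5 for 12 each. Among the 24 genes with the response element core, postpartum mouse 4 had the highest value for 6 and postpartum mouse 1 for 4.
Not every interferon-induced gene was high in this mouse. Isg15 read 183.0 in postpartum mouse 1 and was higher in virgin mouse 2 (195.4). Ifit3 read 219.1 in postpartum mouse 1 and 191.5 to 264.5 in the other 11 mice. Some genes of these families had their lowest value in postpartum mouse 1. Gbp11 read 85.7 there against 91.2 to 198.5 in the other 11, Ifitm2 54.7 against 70.2 to 136.6, and Ifitm1 70.9 against 74.5 to 117.7. Without postpartum mouse 1 the log2 difference between groups was -0.21 for Oasl2 (limma p of 0.0998), against 0.033 with it, 0.089 for Usp18 (limma p of 0.489), against 0.23 with it, and 0.020 for Ifit1 (limma p of 0.858), against 0.13 with it. Array medians were 153 to 158.1 in the postpartum group and 154.7 to 165 in the virgin group, and the Spearman correlation between any pair of arrays was 0.976 to 0.990.

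**Figure D3:**
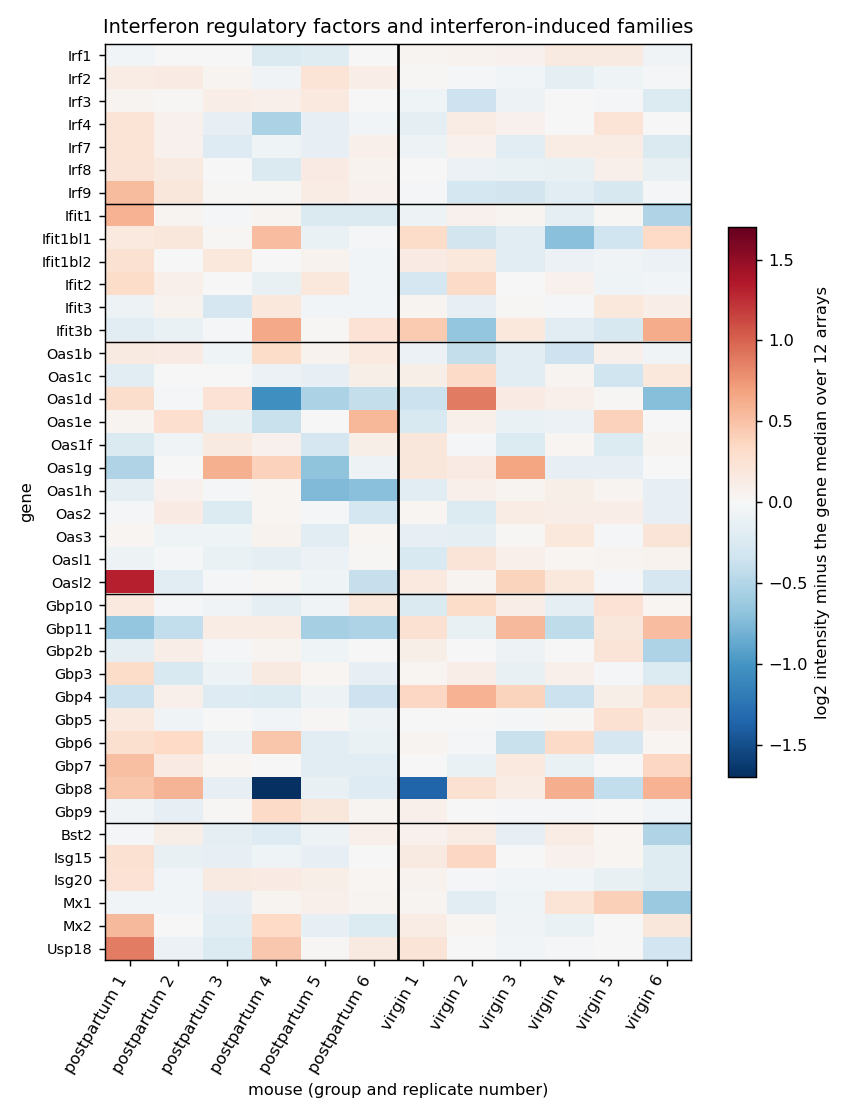
Log2 intensity minus the gene median over the 12 arrays (colour) for the interferon regulatory factors and the Ifit, Oas, Gbp and other antiviral genes (y axis, families separated by lines) in each mouse (x axis, postpartum left of the line and virgin right of it). Postpartum mouse 1 is red for Irf9, Ifit1, Oasl2, Gbp7, Mx2 and Usp18, and postpartum mouse 4 holds the highest value for 3 of the 6 Ifit genes, among them Ifit3, against 2 in postpartum mouse 1.

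Antigen presentation by class I showed few differences. The classical heavy chain H2-K1 averaged 332 ± 22.7 in postpartum mice and 340 ± 45.0 in virgin mice (SD, n = 6 each; log2 difference -0.029, exact p = 0.775). B2m, the light chain of every class I molecule, read 3706.3, 3506.5, 3665.0, 3862.8, 3557.3 and 3291.5 in postpartum mice, and 3836.5, 3648.9, 4065.1, 3635.1, 3763.6 and 3698.7 in virgin mice. The groups overlapped, with a log2 difference of -0.07 (standard error 0.049, exact p = 0.123).
Tap1, Tap2, Tapbp and Tapbpl differed by -0.074 to 0.0043, with a lowest exact p = 0.227. The probesets of H2-D1 and H2-Q2, and of H2-Q7, H2-Q8 and H2-Q9, name several genes at once and were therefore outside the 107. Their differences were -0.054 (exact p = 0.706) for the first and -0.24 (exact p = 0.0411) for the brighter of the 2 probesets that name H2-Q7, H2-Q8 and H2-Q9, and -0.041 (exact p = 0.790) for the dimmer.
Of the 4 measured endoplasmic reticulum chaperones with which class I molecules fold (Hspa5, Calr, Pdia3 and Canx), 2 rose, against 1.72% of all genes. Sppl2a, which was listed with them, differed by -0.087 (exact p = 0.229). Hspa5, the BiP chaperone of the endoplasmic reticulum, read 1966.5, 1976.2, 1810.6, 1582.3, 1783.5 and 1818.0 in postpartum mice, and 1466.8, 1335.5, 1459.0, 1524.9, 1287.0 and 1368.1 in virgin mice, without overlap (log2 difference 0.37, standard error 0.064, limma p of 8.7e-05, exact p = 0.00216). Calr, the chaperone calreticulin of the peptide-loading complex, rose as well (0.25, limma p of 0.00227, exact p = 0.00649), Pdia3 was higher at the second threshold (0.19, exact p = 0.0238; without virgin mouse 4 a limma p of 0.00377), and Canx did not pass (0.014, exact p = 0.673). Hspa5 and Calr passed 0.01 with any single mouse left out. None of 6 immunoproteasome and peptide-trimming genes (Psmb8, Psmb9, Psmb10, Psme1, Psme2 and Erap1) passed 0.01 or 0.05 in limma, against 2.8% and 9.91% of all genes.
Of 20 nonclassical class I genes, H2-Q10 rose and H2-Q4 fell. H2-Q10, a secreted class I molecule known from liver, read 124.8, 111.4, 132.5, 100, 145.7 and 109.9 in postpartum mice, and 112.0, 56.6, 71.1, 80.9, 102.0 and 100.3 in virgin mice. Virgin mice 2, 3 and 4 were low, and the other 3 overlapped the postpartum mice. The log2 difference was 0.50 (standard error 0.16, limma p of 0.00980, exact p = 0.0216), and a second probeset of the gene gave -0.10 (exact p = 0.177). Leaving out postpartum mouse 1, 2, 3, 5 or 6 or virgin mouse 2, 3 or 4 gave a limma p of 0.0129 to 0.0238.
H2-Q4, a gene of the Qa region, read 107.8, 104.2, 108.6, 117.6, 94.7 and 98.1 in postpartum mice, and 135.6, 119.4, 105.3, 145.4, 132.8 and 121.9 in virgin mice. Virgin mouse 3 lay within the postpartum range and the other 5 virgin mice above it. Its log2 intensity fell by 0.27 (standard error 0.081; limma p of 0.00664, exact p = 0.0130). The second H2-Q4 probeset differed by -0.04 (exact p = 0.706), and with each array centred the limma p was 0.0105. Leaving out postpartum mouse 1, 2, 5 or 6 or virgin mouse 1, 4 or 5 gave a limma p of 0.0103 to 0.0167. The H2-Q genes are near-identical copies, so a probeset may take signal from a neighbour.

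Of the 11 class II genes, 9 had a lower mean log2 intensity in postpartum mice (10 on linear intensities), none passed 0.01 in limma with all mice, and H2-Eb2 was the only gene under 0.05. Over all genes 52.1% had a lower mean log2 intensity in postpartum mice. The median log2 difference of the 11 genes was -0.14, and 9 of 11 were negative also with each array centred on its median, where the median was -0.11 and 39.0% of all genes were negative. The highest of the 12 values lay in a virgin mouse for 11 of the 11 genes, against 55.9% of all genes, and with each array centred against 48.7% of all genes. The 11 genes were read in the same 12 mice, so they are not independent of each other and these counts are a description only. Only 4 of the 11 had a mean intensity above that of the median probeset, and H2-Eb2 was not among them.
H2-Eb2, a beta chain related to that of the E molecule, read 83.5, 103.0, 75.5, 105.5, 79.6 and 89.2 in postpartum mice, and 94.0, 110.2, 107.0, 97.5, 124.6 and 99.9 in virgin mice. The difference was -0.24 (standard error 0.097, limma p of 0.0277, exact p = 0.0411). Without postpartum mouse 4, 1 of the 2 high postpartum mice, the limma p was 0.00956, and without postpartum mouse 3 it was 0.0646. H2-Ab1, the beta chain of the A molecule, read 176.1, 185.8, 209.0, 184.2, 179.3 and 183.5 in postpartum mice, and 202.6, 227.6, 230.4, 244.0, 209.1 and 153.0 in virgin mice. Virgin mouse 6 was the lowest of all and the other virgin mice were high, which gave a difference of -0.17 (standard error 0.10, exact p = 0.141). Without virgin mouse 6 the difference was -0.26, with a limma p of 0.00196, and without virgin mouse 4 the limma p was 0.252.
H2-Eb1 differed by -0.14 (exact p = 0.229), and H2-DMa, which helps to exchange the peptides of class II molecules, averaged 605 ± 28.6 in postpartum mice and 668 ± 90.4 in virgin mice (SD, n = 6 each, exact p = 0.156). Virgin mouse 3 held the highest value for 4 of the 11 genes, and virgin mouse 4 for 3. H2-Ea, the alpha chain of the E molecule, is annotated as a pseudogene in GRCm38.p6. It read 218.3 in virgin mouse 3, 39.0 to 120.1 in postpartum mice and 21.8 to 123.1 in the other virgin mice. Without virgin mouse 3 the median of the 11 differences was -0.10, and 9 of 11 were negative.

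**Figure D4:**
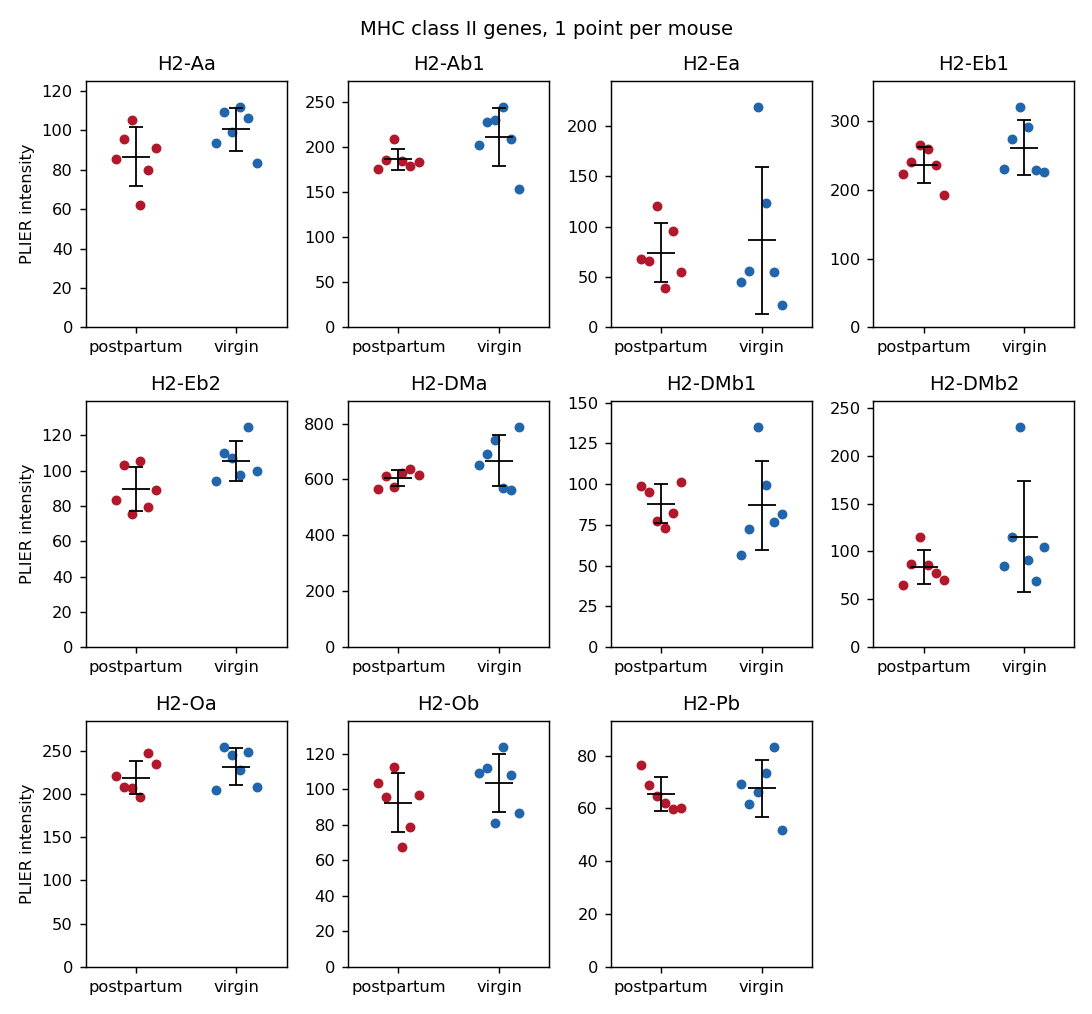
PLIER intensity (y axis, linear, from 0) of the 11 MHC class II genes, 1 point per mouse, for 6 postpartum (left, red) and 6 virgin mice (right, blue) in each panel; bars are the mean with 1 SD. The virgin mean is the higher one in most panels and the groups overlap in all of them.

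Of the genes that control class II transcription and lysosomal processing, 1 passed. Ciita, the master activator of class II transcription, differed by -0.12 (exact p = 0.255), and Rfx5 by -0.028 (exact p = 0.632). Creb1, which also binds class II promoters but acts at many other genes, rose (0.13, limma p of 0.00968, exact p = 0.00866), but leaving out any single mouse except virgin mouse 6 gave a limma p of 0.0108 to 0.0231, and the replicate block 0.0467. Creb1 was the only gene of 9 MHC transactivators that passed, against 2.8% of all genes. Ctss, Ctsl, Ctsb, Lgmn and Ifi30, the enzymes that process antigens in lysosomes, differed by -0.053 to 0.026. None passed 0.01 or 0.05 in limma, against 2.8% and 9.91% of all genes. Cd74, the invariant chain, was not analysed here.
Markers of cells that could carry class II genes moved in both directions. In limma 2.8% of all genes passed 0.01, 6.56% passed 0.03 and 9.91% passed 0.05. Of 19 measured markers of microglia and macrophages, Mpeg1, a pore-forming protein of macrophages, fell (log2 difference -0.56, limma p of 0.00911, exact p = 0.00866). Its limma p was 0.0137 with each array centred, 0.0229 with the replicate block, and 0.0123 to 0.0221 without postpartum mouse 2, 3 or 4 or virgin mouse 1, 2, 3, 4 or 5. P2ry12, a receptor of resting microglia, and Mrc1, a receptor of border macrophages, were lower at the second threshold (-0.23, exact p = 0.00866 and -0.33, exact p = 0.0411), and C1qb, a subunit of complement C1q, was higher (0.40, exact p = 0.00433). The summed intensity of the 19 markers was 7578 to 9077 in postpartum mice and 7437 to 8468 in virgin mice. Of 8 dendritic cell, 11 T and NK cell and 9 neutrophil markers, none passed 0.01 or 0.05 in limma. Of 11 endothelial markers Ly6c1 rose (1.01, limma p of 0.00212, exact p = 0.00216) and Flt1 and Esam were higher at the second threshold. Of 9 astrocyte markers Aldoc was higher at the second threshold and 8 had positive differences, against 47.9% of all genes. Of 8 oligodendrocyte markers Opalin fell (-0.47, limma p of 0.00885, exact p = 0.0173). Without any 1 of 10 mice Opalin no longer passed (limma p of 0.0113 to 0.0216).
Of 8 B and plasma cell markers none passed either, but Ighm, the heavy chain of immunoglobulin M, read 8287 in virgin mouse 1 and 1.85 to 10.2 in the other 11 mice. Ms4a1 and Cd79a, which mark B cells, were 51.2 and 71.6 in that mouse, within their range over the other mice. No marker of these lists was at 0 on any array. Of 9 medium spiny neuron markers 9 had lower averages in postpartum mice, against 52.1% of all genes. Of these, 4 were lower at the second threshold, against 2.88% of all genes. Among the 4, Rgs9 fell (-0.26, limma p of 0.00799, exact p = 0.0108). Its limma p was 0.0111 to 0.0198 without any 1 of 8 mice and 0.0175 with each array centred. The summed intensity of the 9 markers was 23151 to 29654 in postpartum mice and 27133 to 31696 in virgin mice. Of 7 cortical glutamatergic neuron markers, 5 had positive and 2 negative differences, with a median of 0.129. None passed 0.01, and 1 was lower at the second threshold. Their summed intensity was 7385.6 to 11996.5 in postpartum mice and 7618.8 to 10320.8 in virgin mice. The part of these cell markers in the results above was not tested.

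Several of the 107 genes varied more between mice of a group than other genes of like intensity. Ranked by the residual SD of log2 intensity among genes of like mean intensity (deciles), 22 of the 107 (20.6%) fell in the top 10 percent, and the median percentile was 66.4. H2-Ea stood at the 99.9 percentile, and H2-M10.1, a nonclassical class I gene known from vomeronasal neurons, at the 99.9 percentile.
H2-M10.1 read 152.9, 107.0, 164.9, 171.1, 179.3 and 111.1 in postpartum mice, and 140.9, 120.2, 134.6, 152.3, 35.3 and 101.9 in virgin mice. Virgin mouse 5 was far below the other 11, and the difference between groups of 0.48 on the log2 scale did not pass (exact p = 0.167). H2-Ke6, an MHC-region gene for a steroid dehydrogenase that takes no part in antigen presentation, was at the 96.9 percentile and averaged 741 ± 88.6 in postpartum mice and 671 ± 156 in virgin mice (SD, n = 6 each, exact p = 0.284). Ifnar1 stood at the 1.26 percentile, and the dim Ifitm6 and Ifitm5 at the 0.541 and 0.676 percentiles. The mice were outbred, and a sequence difference between mice under a probe cannot be told apart here from a difference in level.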

How the data were processed

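The group of each array was read from the labels. The authors summarized and normalized the scans with PLIER and deposited the result as linear intensity values; the labels name Affymetrix Power Tools 1.12.0 and the study's methods Expression Console. A genome build was not given in the sources used here. Intensities of all 41345 probesets were floored at 1, log2-transformed and compared in limma 3.58.1 under R 4.3.3 (lmFit and eBayes), with Benjamini-Hochberg adjustment over every probeset; the fit was tested on simulated data. Exact permutation tests used all 924 splits. The number of arrays limits the precision.

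A probeset was used where its annotation holds a single symbol (23521 probesets), and the brightest represented the gene. Of the 107 genes, 7 had more than 1 probeset, and 17 probesets naming several genes were left out. In the RefSeq table of GRCm38.p6, 106 of the 107 were found, and 10 are annotated as pseudogenes. The genes and lists were chosen with earlier results of these data known. Genes named were those with p under 0.03, the 3 of highest mean per role group, and, above the median intensity, the 5 largest rises, the 5 largest falls and the 5 of highest residual SD percentile. In the pathway lists they were those with p under 0.03 and the brightest; other genes, such as H2-Ea, Stat2 and Ciita, were chosen after their values were seen.

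The alternatives tried were quantile normalization, array centring, linear intensities, another pseudocount (16), dropping dim probesets, a variance trend, robust moderation, array weighting, a replicate block, leaving out each array, and averaging the probesets of a gene.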

Additional observations from a re-analysis of the deposited data

Results flagged for a closer look

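In 6 of the 98 groups of 6 mice tested (49 named genes in 2 groups), 1 mouse lay farther from the rest of its group than Dixon's test allows at the 5 percent level, which chance gives for about 1 in 20 groups. The 49 genes were in part named for a high residual SD in these same data, Oasl2 and Ifi27 among them. The rate of 1 in 20 is therefore no fair comparison, and nothing is concluded from the count. Of the 6 flagged values, 3 were of postpartum mouse 1. Oasl2 read 364.8 in postpartum mouse 1, with 110.5 to 147.8 in the other postpartum mice. Ifit1 read 221.5 there, with 123.1 to 150.8 in the others. Irf9 read 405.3 there, with 284 to 319.1 in the others. The remaining 3 were single genes in other mice. H2-Ab1 read 209 in postpartum mouse 3, with 176.1 to 185.8 in the others. H2-M10.1 read 35.29 in virgin mouse 5, with 101.9 to 152.3 in the other virgin mice. Ifi27 read 336.1 in virgin mouse 3, with 420.7 to 475.9 in the others. Their causes were not tested.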

How the results depend on the processing

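No named gene that passed 0.01 changed direction under any alternative. The 5 rises at p under 0.01 became 3 when only probesets above the median were fitted, and the 2 falls became 1 with each array centred, 0 above the median and 1 with the mean of a gene's probesets. At p under 0.03 the 7 higher genes became 4 and the 6 lower genes 1 above the median, where 36 of the 107 genes remained by construction. Centring moved the median log2 difference of the 107 genes to 0.028 and of all genes to 0.029. With each array centred, 7 genes rose and 1 fell, against 2.87% and 0.428% of all genes. Leaving out 1 mouse gave 1 to 5 rises, 0 to 5 falls, 6 to 9 higher and 4 to 9 lower genes at 0.03, and medians of -0.021 to 0.0018. Rises were 2 without postpartum mouse 1, 5 or 6 or virgin mouse 4, 3 without postpartum mouse 3 or 4 or virgin mouse 3, and 1 without virgin mouse 2. Falls were 1 without postpartum mouse 1 or virgin mouse 5, 0 without postpartum mouse 6, and 5 without virgin mouse 6. The labels number the mice alike in both groups, but deviations of same-numbered mice correlated at -0.31 to 0.20 and 1 of 6 pairs was over 0.1, so the numbers were not taken to pair them. With the replicate number as a block, 4 genes rose and 3 fell at 0.01, against 1.47% of all genes, 8 were higher and 4 lower at 0.03, the median stayed at -0.0055, and Oas1b (limma p of 0.0202) and Ifitm6 (limma p of 0.0187) no longer passed. Of the 6 postpartum mice, 2 correlated best with the virgin mouse of their own number. The causes were not tested, and most of the 107 genes are dim, which limits what can be seen.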
